A study of Mus musculus with 4 samples.

Results

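The genes described here are 8 cytochrome P450 genes (Cyp2g1, Cyp1a2, Cyp2a5, Cyp2a4, Cyp2f2, Cyp4b1, Cyp2j6 and Cyp4a12b) and Por, the gene of the reductase that feeds them electrons. They were taken by name from a table of 55511 genes, 134 of which carry a P450 symbol. The cells came from the main olfactory epithelium of 4 untreated male C57BL/6 mice aged 8 weeks, which form 1 group without a treatment or a genetic change. Each mouse gave 1 droplet library of papain-dissociated cells, sorted as live and nucleated by their dyes (Hoechst+/DRAQ7-) before capture. Expression was read from the 3′ end as unique molecular identifiers (UMIs), each of which stands for 1 captured transcript. The deposited annotation places 15859 of 21809 cells in 10 types, which are Sus (sustentacular), HBC1 and HBC2 (horizontal basal), GBC (globose basal), Mv1 and Mv2 (microvillar), INP (neuronal precursors), iOSN1 and iOSN2 (immature neurons) and mOSN (mature olfactory sensory neurons). A level is the number of UMIs of a gene per 10000 UMIs of all the cells of 1 type in 1 mouse, and means are given with the SD over the 4 mice.

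Cytochrome P450 enzymes are heme proteins of the endoplasmic reticulum that insert an oxygen atom into small lipophilic molecules. Most of them take their electrons from NADPH through the reductase encoded by Por, with cytochrome b5 as a helper. The nasal mucosa is one of the tissues richest in these enzymes outside the liver, and supporting cells and Bowman glands are their known sites there. They are thought to clear odorants and inhaled chemicals near the sensory cilia, and some of them turn inhaled compounds into toxic products.

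Cyp2g1, Cyp2a5, Cyp2a4 and Cyp2f2 all lie on mouse chromosome 7 in the GRCm38 build. Cyp2g1 was at chr7:26808892-26821205 on the plus strand and Cyp2a5 followed it at chr7:26835305-26843548, with its start 26.4 kb downstream. Cyp2a4 was at chr7:26307169-26315088 and Cyp2f2 at chr7:27119909-27133660, both on the plus strand. Cyp1a2 was at chr9:57676937-57683703 on the minus strand, and Por was at chr5:135670033-135735326 on the plus strand. The remaining 3 were on chromosome 4, with Cyp2j6 at chr4:96516138-96553661 and Cyp4b1 at chr4:115624725-115647723 on the minus strand and Cyp4a12b at chr4:115411624-115439034 on the plus strand.

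The sequence in front of 3 of these genes is shown because Cyp2a5 and Cyp1a2 were high in the same cells while Cyp2a4, a near copy of Cyp2a5, was hardly counted. RefSeq promoters on GRCm38.p6 were at hand for 7 of the 9 genes, and the bases printed end before the start of the gene in both RefSeq and GENCODE. In the pair, capitals mark the bases that differ, with Cyp2a5 from chr7:26835089-26835304 and Cyp2a4 from chr7:26306943-26307158, both on the plus strand. In Cyp1a2, from the minus strand of chr9:57683704-57683905, capitals mark the motif TTGGC or its reverse complement GCCAA.
Cyp2a5: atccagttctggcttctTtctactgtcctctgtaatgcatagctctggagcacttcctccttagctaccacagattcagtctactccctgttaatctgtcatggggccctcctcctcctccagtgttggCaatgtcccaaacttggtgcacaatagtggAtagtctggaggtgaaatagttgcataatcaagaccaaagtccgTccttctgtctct
Cyp2a4: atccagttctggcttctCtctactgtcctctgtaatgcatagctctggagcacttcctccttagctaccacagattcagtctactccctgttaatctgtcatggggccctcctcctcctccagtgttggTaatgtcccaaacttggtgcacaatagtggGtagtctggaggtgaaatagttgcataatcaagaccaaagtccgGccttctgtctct
Cyp1a2: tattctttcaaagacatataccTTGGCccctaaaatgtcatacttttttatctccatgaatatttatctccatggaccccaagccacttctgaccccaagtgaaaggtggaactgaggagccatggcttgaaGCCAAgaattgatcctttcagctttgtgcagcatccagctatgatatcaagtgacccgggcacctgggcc

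The stretches of Cyp2a5 and Cyp2a4 were 98.1% identical over 216 bases. They differed at 4 bases, T18C, C130T, A160G and T204G, with positions counted from the 5′ end of the printed stretch and the base of Cyp2a5 given first. TTGGC is the half-site of the nuclear factor I proteins, which have been tied to the activity of P450 genes in the nose. Over the 250 bases before the RefSeq start, on both strands, it occurred once in Cyp2a5 and not in Cyp2a4, where C130T falls within it. It also occurred at 2 places in Cyp1a2, at 1 place each in Cyp2j6 and Por, and not in Cyp2f2 or Cyp4b1. Such matches are common, as 41.9% of 27025 promoters held this motif. The core of the aryl hydrocarbon receptor site, GCGTG, was found at 3 places in Por and in no other of the 7 promoters (28.2% of all promoters), and the FOX core TGTTTAC was found in none of the 7 (3.09% of all promoters).

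The libraries held 23157467 to 32382702 UMIs each, and the labels name no batch. The Sus type held 336 cells (67 to 114 per mouse), HBC2 held 544 (61 to 225) and mOSN held 10519 (1887 to 3230). Few barcodes occurred in more than 1 library, with 2 of the 336 Sus cells and 3 of the 544 HBC2 cells among them. The markers fit the Sus label in part. Krt18 (46.9) and Ermn (4.34) were high in Sus, but Sec14l3 (0.200), Cbr2 (1.69) and Sox2 (0.0733), which also mark sustentacular cells, were lower there than in HBC2 (15.2, 70.8 and 2.67). Sus also held Sox9 (5.83) and Aqp5 (16.6), which mark Bowman gland cells, although the gland genes Bpifb9b (3 UMIs) and Muc5b (0.0992) were near 0. HBC2 held the basal keratins Krt5 (7.28) and Krt14 (8.47). It also held Bpifa1 (165) and Reg3g (37.9) of the respiratory lining, though 349 of its 544 cells had no Bpifa1. The summed level of 5 respiratory genes, these 2 included, ran from 40.6 to 375 over the mice in HBC2. Scgb1a1, another of them, was at 0 in Sus, HBC2 and HBC1. Sus and HBC2 are therefore used below as the names of deposited groups. The deposited Mv1 held the Trpm5 group of markers (summed level 27.4), and Mv2 the Ascl3, Cftr and Foxi1 group (199). GBC held 4 globose basal markers at a summed level of 12.7. It also held 5 ensheathing cell markers at 8.91, with 1.82 to 14.1 over the mice.

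Cyp2g1 encodes a P450 of the olfactory mucosa that acts on steroids and other small molecules, and it was high in Sus and HBC2. Its level in Sus was 68.6, 80.0, 76.5 and 60.4 in mice 1 to 4, with a mean of 71.4 ± 8.73 (SD, n = 4). In HBC2 it was 16.5, 44.0, 15.4 and 26.8, with a mean of 25.7 ± 13.3. The ranges of Sus and HBC2 did not overlap, and every other type was below both in each mouse. In mOSN the level was 0.0432 ± 0.00502, from 238 UMIs in 4 mice, which was 0.0611% ± 0.00933 of the level in Sus. The means of Mv1 (0.203) and Mv2 (0.0705) were above that of mOSN with ranges apart, while mOSN, INP, iOSN1 and iOSN2 overlapped one another in the order of their means.

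Cyp2a5, the coumarin 7-hydroxylase of the mouse and an activator of tobacco nitrosamines, had the same order of types at its top. Sus gave 97.6, 127, 101.9 and 101.5 in the 4 mice (107 ± 13.6), and HBC2 gave 41.9, 67.7, 37.0 and 40.5 (46.8 ± 14.1). Again the ranges of the pair did not overlap, and mouse 2 was the highest in both. HBC1 followed at a mean of 2.31 ± 2.47 with a range of 0.171 to 4.99, and mOSN had 0.0956 ± 0.00986.

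Cyp1a2, a P450 inducible by aryl hydrocarbons and best known from the liver, was at 13.6, 17.4, 18.1 and 12.6 in Sus (15.4 ± 2.72). HBC2 held 2.45, 5.18, 2.90 and 3.42 (3.49 ± 1.195), below every Sus value. Elsewhere it was close to 0, with 42 UMIs over all 10519 mOSN cells and no UMI in INP. The order Sus above HBC2 above the rest was thus shared by Cyp2g1, Cyp2a5 and Cyp1a2.

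Cyp2a4, a steroid 15-alpha-hydroxylase of the same subfamily as Cyp2a5, had 9 UMIs in Sus, 6 in HBC2 and 1 each in HBC1 and Mv2, and no UMI in the other 6 types. Cyp2a5 had 23534 UMIs in the same Sus cells. Because the coding sequences of the pair are 98.4% identical, with 23 of 1482 bases different, the split of reads between them was examined at the 3′ end, where the assay reads. Of the 451 windows of 50 bases in the last 500 bases of each transcript, 395 of Cyp2a5 and 284 of Cyp2a4 were absent from the other transcript. The last 150 coding bases, which lie in exon 9 of both genes on the plus strand, are shown with the bases that differ in capitals, from chr7:26842907-26843056 for Cyp2a5 and chr7:26314732-26314881 for Cyp2a4.
Cyp2a5: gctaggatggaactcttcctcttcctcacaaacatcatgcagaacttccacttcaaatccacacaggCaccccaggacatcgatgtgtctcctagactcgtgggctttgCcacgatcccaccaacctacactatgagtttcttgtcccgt
Cyp2a4: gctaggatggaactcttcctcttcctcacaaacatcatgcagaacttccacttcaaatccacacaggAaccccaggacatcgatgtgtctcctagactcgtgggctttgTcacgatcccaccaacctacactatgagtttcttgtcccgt

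The 2 substitutions there are C68A and C110T, counted from the 5′ end of the printed stretch with Cyp2a5 first. Reads from the shared windows could not be assigned to 1 gene by their sequence alone, so the 9 UMIs of Cyp2a4 are uncertain.

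**Figure D1:**
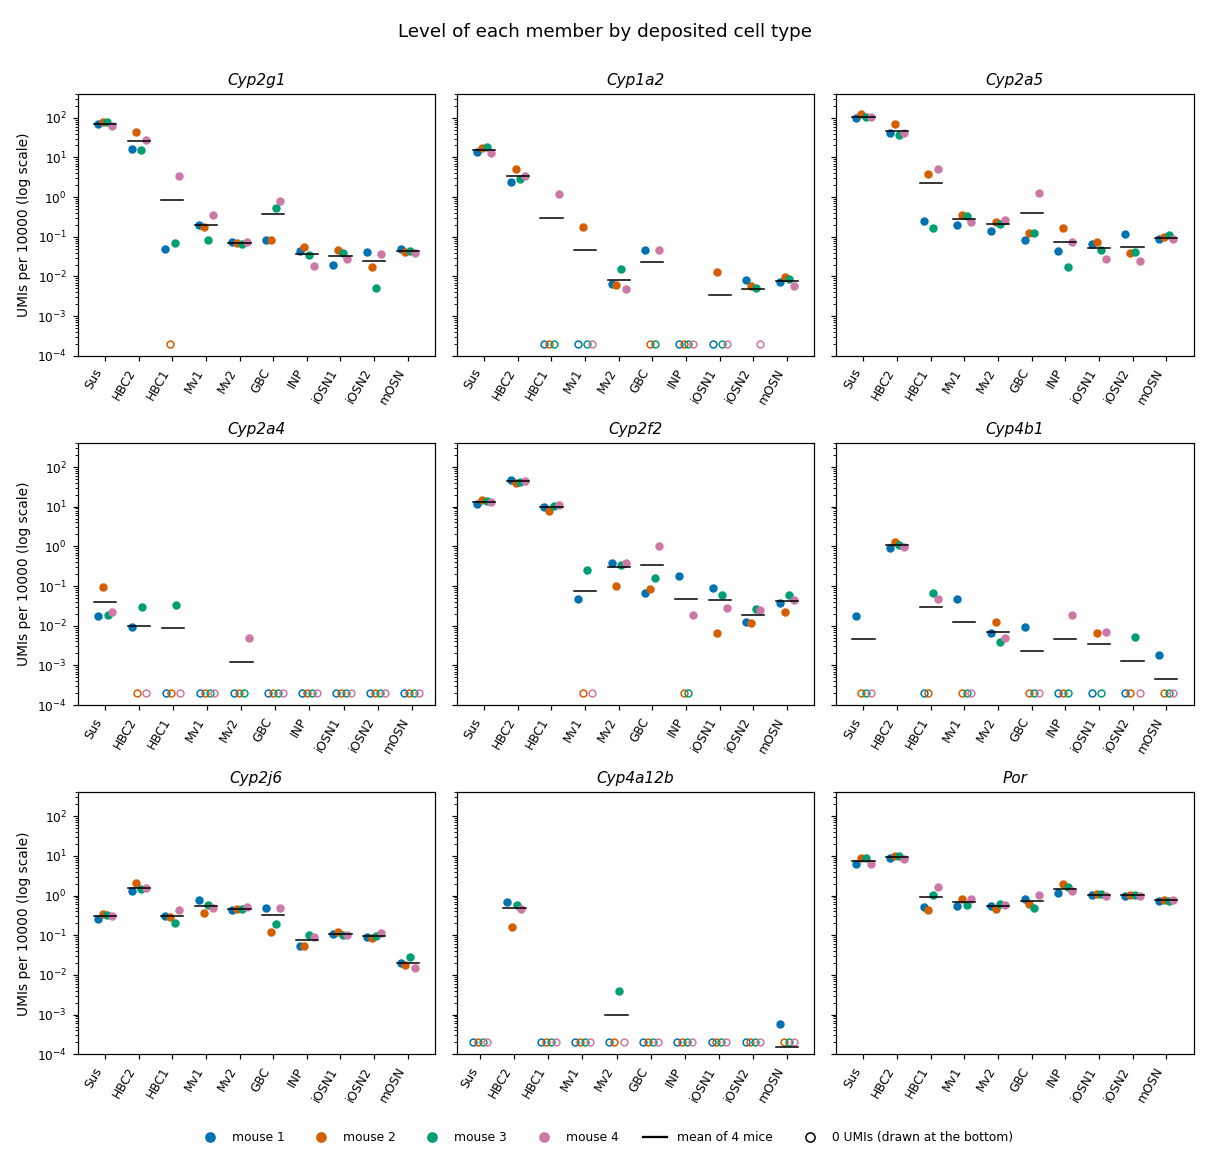
Level of each of the 9 genes (UMIs per 10000, log scale) in the 10 deposited types. Each filled point is 1 mouse, open points at the bottom are mice with 0 UMIs, and bars are means of 4 mice; Cyp2g1, Cyp1a2 and Cyp2a5 peak in Sus, while Cyp2f2, Cyp4b1, Cyp2j6 and Cyp4a12b peak in HBC2 and Por is high in both.

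Cyp2f2, which activates naphthalene and styrene in the airways and nose, was highest in HBC2 and not in Sus. Its level in HBC2 was 46.9, 39.9, 42.2 and 44.0 in the 4 mice (43.2 ± 2.95), the smallest relative spread among the abundant members of that type. Sus followed with 11.4, 14.6, 14.2 and 13.4 (13.4 ± 1.42), and HBC1 with 9.60, 7.86, 10.7 and 11.3 (9.86 ± 1.51). The 3 ranges were apart from one another, those of Sus and HBC1 by little. Cyp2f2 was thus the P450 member found at a high level in all 3 of these types. The fourth type in order, GBC, had 0.338 ± 0.473, and mOSN had 0.0410 ± 0.0158.

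The 3 genes from chromosome 4 were lower and also peaked in HBC2. Cyp4b1, which activates furans and other airway toxicants, was at 0.926, 1.32, 1.08 and 0.963 in HBC2 (1.07 ± 0.179) and had 1 UMI in all of Sus. The ratio of the pooled levels of HBC2 and Sus was 220, with a counting interval of 39.2 to 8696 (95%). Cyp4a12b, of a family of fatty acid hydroxylases, was at 0.682, 0.165, 0.586 and 0.462 in HBC2 (0.474 ± 0.224) with no UMI in Sus, which made it at least 34.4-fold higher in HBC2 when 3 counts over the whole Sus group are taken as the limit. Its coding sequence is 98.5% identical to that of its neighbour Cyp4a12a, and 284 of 451 windows at its 3′ end were absent from that gene, so its counts carry the same uncertainty as those of Cyp2a4.

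Cyp2j6, which belongs to a subfamily that oxidises arachidonic acid, was the P450 member spread most evenly over the epithelium. HBC2 held 1.34, 2.04, 1.44 and 1.58 (1.60 ± 0.310), above all other types in each mouse. Mv1 (0.548 ± 0.176), Mv2 (0.469 ± 0.0411), GBC (0.322 ± 0.192), Sus (0.307 ± 0.0376) and HBC1 (0.305 ± 0.0902) followed in an order in which each neighbour overlapped the next. The immature neurons had 0.108 ± 0.00848 (iOSN1) and 0.0952 ± 0.0112 (iOSN2), and mOSN had 0.0199 ± 0.00568, below INP (0.0759) with ranges apart.

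Por, the electron donor, was high in HBC2 and Sus but was present in all 10 types. HBC2 gave 8.84, 10.1, 9.68 and 8.53 (9.30 ± 0.740), and Sus gave 6.26, 9.13, 8.94 and 6.36 (7.67 ± 1.58), with overlapping ranges. INP came next at 1.499 ± 0.373, then iOSN1 (1.06 ± 0.0652), iOSN2 (1.02 ± 0.0449), HBC1 (0.911 ± 0.565) and mOSN (0.761 ± 0.0394). HBC1, which held Cyp2f2 close to the level of Sus, thus had Por near the levels of GBC (0.736) and Mv1 (0.690) and well below that of Sus. Blood cells, which the authors had removed, gave the lowest Por level at 0.152 ± 0.0437.

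The HBC2 values of Cyp2g1, Cyp1a2 and Cyp2a5 came from a minority of its cells. In the authors' earlier clustering, made before cells were removed, 132 of the 544 HBC2 cells had been placed with Sus and 411 with HBC. This split was chosen after the values had been seen. In the cells first placed with Sus, the level of Cyp2g1 was 52.9, 112, 42.4 and 63.4 (67.7 ± 30.9), and in those first placed with HBC it was 0.0263 ± 0.0309 from 7 UMIs in all. Cyp1a2 was at 9.28 ± 2.61 and 0.00571 ± 0.0114 (1 UMI), respectively. Cyp2a5 was at 121 ± 35.5 in the former and at 4.20, 1.36, 2.14 and 2.63 (2.58 ± 1.196) in the latter. The Cyp2g1 of HBC2 was therefore nearly all in the 132 cells, and Cyp2a5 remained in the others above its level in mOSN.

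The other members were split less sharply between these groups of HBC2 cells. Cyp2f2 was somewhat higher in the cells first placed with HBC (47.4 ± 5.17) than in those first placed with Sus (36.7 ± 3.89). Cyp4a12b was at 0.406 ± 0.157 and 0.611 ± 0.383, which overlapped. Cyp4b1 was at 0.271 ± 0.0909 in the cells first placed with HBC and 2.41 ± 0.379 in the rest, Cyp2j6 at 0.412 ± 0.132 and 3.59 ± 0.469, and Por at 5.61 ± 0.741 and 15.5 ± 2.25. The 132 cells also held Sec14l3 (39.7) with next to no Krt5 (0.0384), Krt14 (0.00526) or Trp63 (0.00526), and the 411 cells held Krt5 (11.6) and Krt14 (13.6) with little Sec14l3 (0.417). Cbr2 was alike in both (71.2 and 71.0). The 132 cells were not uniform, as 35 of them had no Cyp2g1 and 98 had no Bpifa1. The summed level of the 5 respiratory genes in them was 475, 1.40, 968 and 380 in mice 1 to 4. In the 411 cells it ran from 39.5 to 72.9 over the mice. Because no step that left the members out of either clustering is described, these differences are a description.

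**Figure D2:**
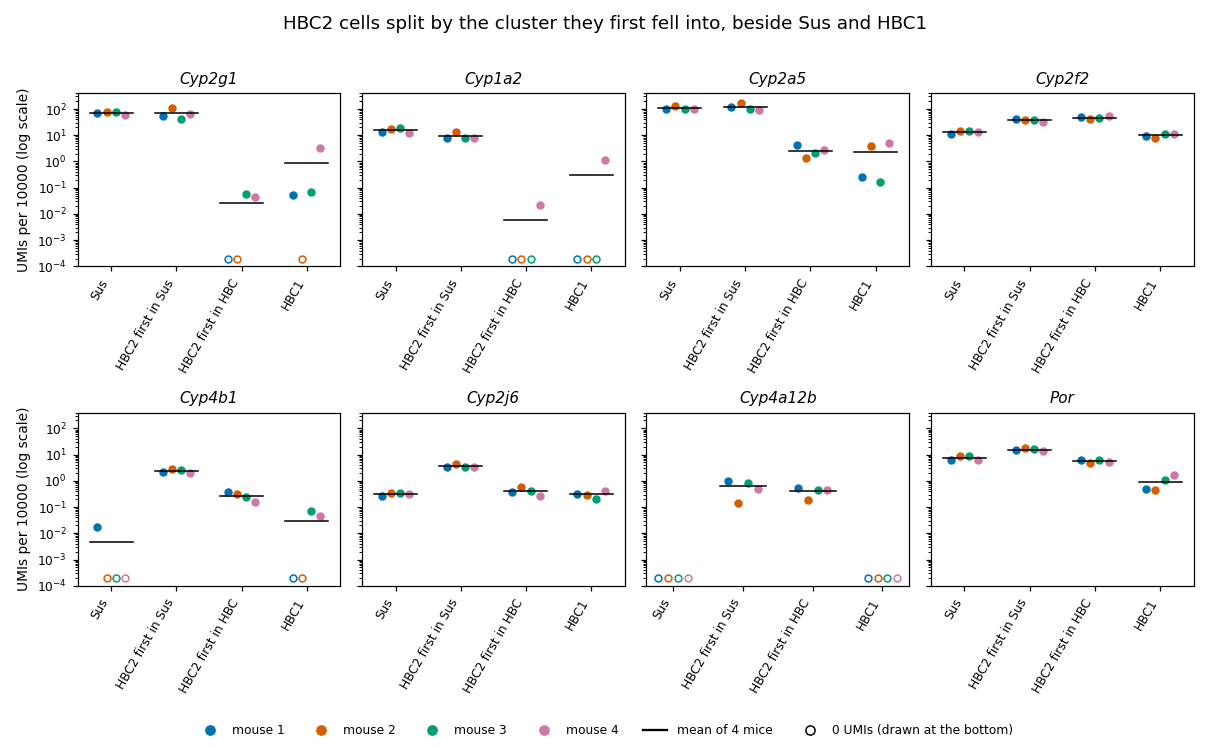
Levels (UMIs per 10000, log scale) of 8 of the genes in Sus, in the HBC2 cells first placed with Sus or with HBC, and in HBC1, with 1 point per mouse, open points for 0 UMIs and bars for means. Cyp2g1 and Cyp1a2 fall from 67.7 and 9.28 in the first HBC2 group to 0.0263 and 0.00571 in the second, while Cyp2f2 stays between 31.4 and 53.2 in every mouse of both.

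The same split was seen cell by cell, after each cell was thinned at random to 2000 UMIs so that depth was equal. Of 531 HBC2 cells, 92 held Cyp2g1 without Krt5, 335 held Krt5 without Cyp2g1, and 2 held both. Cyp2f2 crossed this divide, as it was found in 335 cells with Krt5 and in 192 without it. Over the HBC2 cells of each mouse, the rank correlation of Cyp2g1 was 0.901 to 0.909 with Cyp1a2, -0.673 to -0.375 with Krt5 and -0.223 to 0.108 with Cyp2f2. These correlations are over cells of 1 library and describe the mixture of cells, with no test.

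Within Sus, Cyp2g1 varied from cell to cell together with Cyp2a5 and Cyp1a2. The rank correlation of Cyp2g1 with Cyp2a5 was 0.517 to 0.745 over the 4 mice and with Cyp1a2 0.365 to 0.514, at 67 to 111 cells per mouse thinned to 2000 UMIs. With Cyp2f2 (0.173 to 0.306) and Por (0.190 to 0.288) it was weak. These values too are over cells of 1 library. The level of Cyp2g1 in single Sus cells ran from 32.9 to 109 per 10000 between the lower and upper quartiles, with a median of 74.5, and 37 of the 336 cells had none. Only 12 of the 336 lacked Cyp2a5.

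Together the 9 genes made up 2.15% ± 0.251 of all UMIs in Sus, 1.32% ± 0.267 in HBC2, 0.146% ± 0.0562 in HBC1 and 0.00969% ± 0.000156 in mOSN. Since 1 UMI stands for 1 transcript read at its 3′ end, these shares count transcripts and were not divided by gene length. In Sus, Cyp2a5 held 49.8% of the members' UMIs, Cyp2g1 33.2%, Cyp1a2 7.14%, Cyp2f2 6.24% and Por 3.54%. The make-up of HBC1 was of another kind, with 72.3% ± 19.3 for Cyp2f2 (89.6, 63.4, 86.9 and 49.3% in mice 1 to 4). In mice 2 and 4, 1 cell held most of the Cyp2a5 UMIs of HBC1 (43 of 53 and 103 of 106). The HBC2 cells first placed with HBC were also mostly of Cyp2f2, with 83.6%. In mOSN, Por alone held 78.5%, followed by Cyp2a5 with 9.87% and Cyp2g1 with 4.46%. Of the UMIs of all 134 P450 genes, the 8 P450 members held 99.0% in Sus, 96.4% in HBC2 and 80.9% in HBC1, against 11.5% in mOSN.

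**Figure D3:**
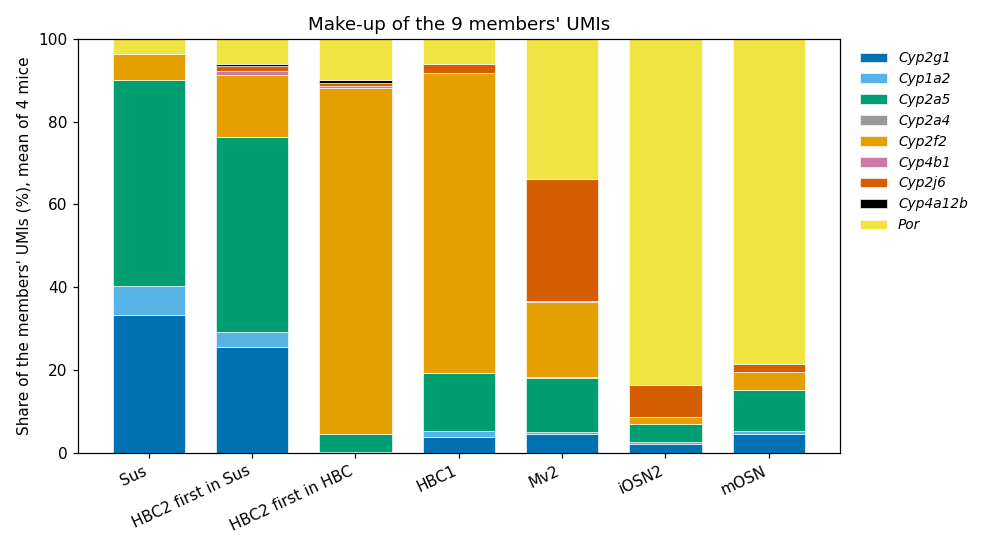
Share of the members' UMIs (%, mean of 4 mice) that each gene held in Sus, in the parts of HBC2, and in 4 further types. Cyp2a5 and Cyp2g1 fill most of the bar of Sus (49.8% and 33.2%), Cyp2f2 that of HBC1 (72.3%, with 49.3% to 89.6% over the mice) and Por that of mOSN (78.5%).

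RNA set free by broken cells can enter any droplet, so the share of cells with a UMI was set against neurons and against the blood and immune cells that the authors had removed. Thinning to 2000 UMIs left out 4 Sus, 13 HBC2 and 369 mOSN cells, and 58 blood and 1116 immune cells, as too shallow. Of those kept, 86.6% of Sus cells had Cyp2g1, against 0.758% of mOSN cells and 0.551% of blood cells. For Cyp2a5 the shares were 94.5% in Sus, 35.9% in HBC2, 1.85% in mOSN and 1.58% in blood. At least 1 of the 8 P450 members was found in 96.6% of Sus, 99.8% of HBC2 and 81.7% of HBC1 cells, against 3.77% of mOSN, 3.44% of blood and 6.46% of immune cells. Without thinning the mOSN share was 9.16%, at a median of 4861 UMIs per cell against 5587 in Sus. Immune cells had Cyp2g1 in 1.13% and Cyp2a5 in 3.66%, so the shares of Cyp2g1, Cyp2a5 and any P450 member in mOSN lay between those of blood and immune cells, and no expression in mOSN is read from them. The mean levels lay between them too, with Cyp2g1 at 0.0432 in mOSN, 0.0195 in blood and 0.0747 in immune cells and Cyp2a5 at 0.0956, 0.0452 and 0.378. For Cyp2g1 this order held in mouse 4 alone, with mOSN above both in mice 1 and 2 and below both in mouse 3. Mouse 4 had the highest immune value (0.168, against 0.0485, 0.0245 and 0.0580 in mice 1 to 3). Cyp2f2 had a lower mean in mOSN (0.0410) than in blood (0.0487) and immune cells (0.192). The blood levels rested on 5 UMIs of Cyp2g1, 11 of Cyp2a5 and 9 of Cyp2f2 in all, so the order of mOSN and blood is uncertain. Cyp2j6 was at 0.0199 in mOSN and 0.0257 in immune cells, with no UMI in blood. The source of these UMIs was not tested.

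Por differed from Cyp2g1, Cyp1a2 and Cyp2a5 in this respect. It was found in 71.9% of Sus and 66.4% of HBC2 cells, and still in 14.4% of mOSN and 24.2% of INP cells, while blood had 2.84% and immune cells 10.1%. The level in mOSN was 10.3% ± 2.24 of that in Sus, whereas Cyp2g1, Cyp1a2 and Cyp2a5 in mOSN stood at 0.0611%, 0.0506% and 0.0902% of Sus. Cyp2f2 and Cyp2j6, whose highest type was HBC2 and not Sus, stood in mOSN at 0.308% ± 0.112 and 6.54% ± 1.84 of Sus. Cyp2j6 was at 0.307 in Sus and 1.60 in HBC2, so its percentage of its highest type would be lower.

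**Figure D4:**
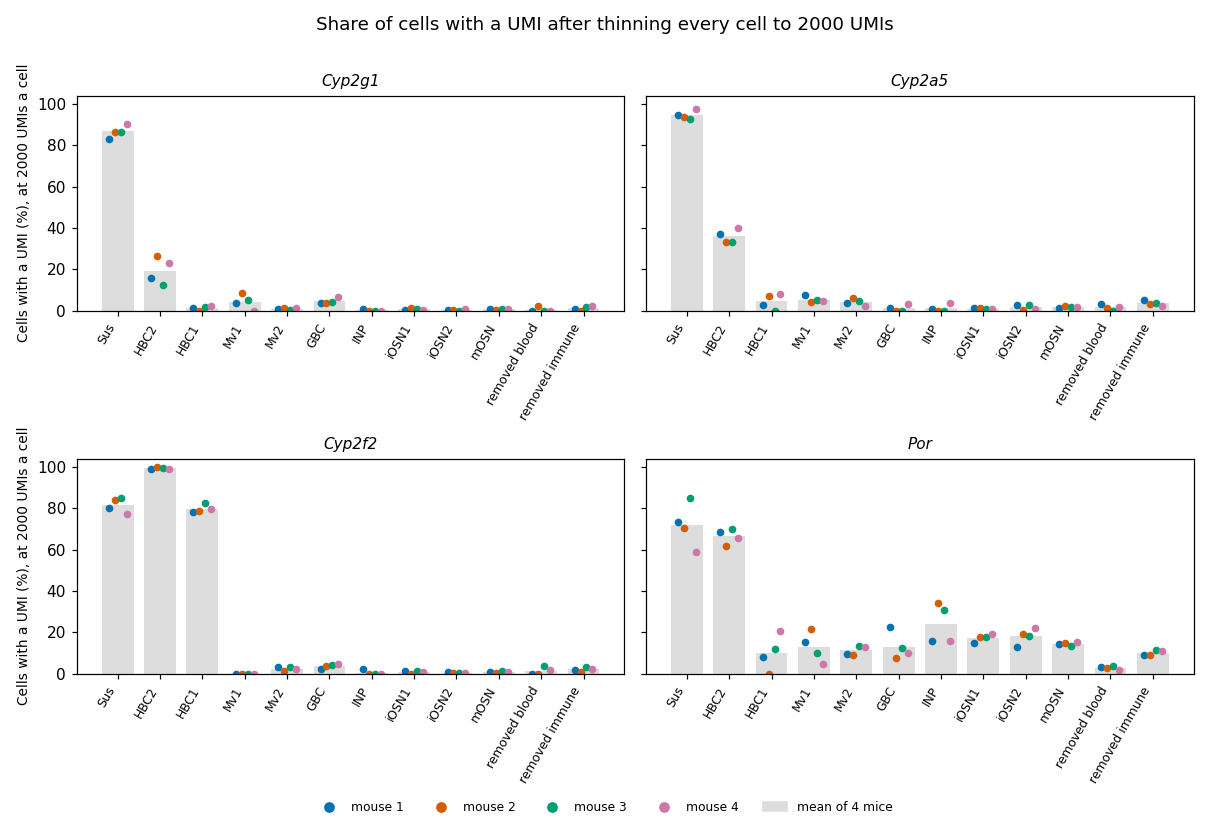
Share of cells with at least 1 UMI (%) of Cyp2g1, Cyp2a5, Cyp2f2 and Por after each cell was thinned to 2000 UMIs, in the 10 types and in the removed blood and immune cells, with points for mice and bars for means. Cyp2g1 reaches 86.6% in Sus and 0.758% in mOSN, and Por 71.9% and 14.4%.

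Free RNA of 1 source would keep its genes in about 1 ratio in every type. The ratio of Cyp1a2 to Cyp2g1 in mOSN was 0.143, 0.234, 0.200 and 0.154 in mice 1 to 4, and in all other cells of the same libraries it was 0.170, 0.193, 0.216 and 0.179. That of Cyp2a5 was 1.75, 2.38, 2.49 and 2.33 in mOSN, against 1.95, 1.60, 1.69 and 1.64, so it was higher in mOSN in 3 mice and lower in 1. For Cyp2f2 the ratio was 0.738, 0.553, 1.38 and 1.15 in mOSN against 1.499, 0.389, 1.09 and 0.885, again higher in mOSN in 3 mice and lower in 1. The ratio of Por was 15.0 to 20.6 in mOSN and 0.248 to 0.435 elsewhere, with ranges apart. Cyp2j6 also had a higher ratio in mOSN (0.385 to 0.636) than elsewhere (0.0352 to 0.0774), at 20 to 35 UMIs per mouse. The free RNA itself was not measured, and the source of the UMIs in mOSN was not tested.

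A few cells set the Cyp2g1, Cyp1a2 and Cyp2a5 values of HBC1 and GBC. In HBC1 of mouse 4, all 71 UMIs of Cyp2g1 came from 1 cell, all 25 of Cyp1a2 from 1 cell and 103 of 106 of Cyp2a5 from 1 cell; whether it was the same cell was not examined. The other 3 mice had 4 UMIs of Cyp2g1 in HBC1 between them. In GBC of mouse 4, the cell with most UMIs of each gene, taken gene by gene, held 31 of 52 for Cyp2g1, 57 of 83 for Cyp2a5 and 32 of 67 for Cyp2f2. In GBC of mouse 3, 1 cell held 17 of 17 UMIs of Cyp2g1, and in HBC1 of mouse 2, 1 cell held 43 of 53 of Cyp2a5. Cyp2f2 in HBC1 was not of this kind, as it was found in 79.6% of the cells at 2000 UMIs. Whether such cells are pairs of cells in 1 droplet was not tested.

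To compare types by a test, cells were assigned to types a second time without any P450 gene, Por or receptor gene, and the 15175 of 15859 cells (95.7%) whose type came out as deposited were summed per mouse and type. The sums were compared in 1 model with edgeR's quasi-likelihood test, with the mouse as a block and Benjamini-Hochberg adjustment over 12344 genes at a threshold of 0.05. The p-values measure the spread between mice, and since these genes were not kept out of the deposited clustering the tests are not independent of it. Of the 9 members, 8 passed the filter on low counts (all but Cyp2a4). All 8 but Por were near 0 in mOSN and passed that filter through the types in which they were high, so their calls in those types against mOSN, and the counts of members called, are a description. Cyp4b1 and Cyp4a12b passed through HBC2 alone, which fixed their calls there.

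In Sus, 6 of the 8 members tested were higher than in mOSN, where 33.6% of all genes were. The log2 differences were 10.81 for Cyp2g1 (SE 0.33), 10.94 for Cyp1a2, 10.24 for Cyp2a5, 8.47 for Cyp2f2, 4.05 for Cyp2j6 and 3.46 for Por. Cyp4b1 (2.28, edgeR adjusted p = 0.179) and Cyp4a12b did not pass. In HBC2, 8 of 8 were called higher than in mOSN (37.3% of all genes), Cyp4b1 and Cyp4a12b among them, by 10.14 for Cyp2f2, 9.04 for Cyp2g1 and 3.66 for Por. DESeq2 called 7 of the 8, without Cyp4a12b (adjusted p = 0.0837), and without mouse 1, when Cyp4a12b did not pass the filter, edgeR called 7 of 7. With the HBC2 cells first placed with HBC alone, Cyp2g1 was at -0.72 and Cyp1a2 at -0.99. That split was chosen after the values had been seen, so these differences are a description.

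In HBC1, 6 of 8 were higher than in mOSN (30.2% of all genes). Cyp2f2 led with a log2 difference of 7.85 (SE 0.26), and Por was at 0.17 (edgeR adjusted p = 0.552). The calls of Cyp2g1 (4.11) and Cyp1a2 (4.87) in HBC1 rested on mouse 4, where 1 cell held all UMIs of the gene. Without that mouse the differences were 0.09 and -4.02, with edgeR adjusted p of 0.972 and 0.438, which left 4 of the 6 calls. Cyp4b1 (4.74) rested on 3 UMIs and no longer passed without mouse 3. GBC had the lowest share of cells whose type came out as deposited (151 of 202). In it 4 of 8 were higher (38.7% of all genes), and without mouse 4 the differences of Cyp2a5 and Cyp2f2 turned from 1.99 and 2.49 to -0.57 and -0.39. That left 2 calls, Cyp2j6 and Cyp2g1, and in mouse 3 the UMIs of Cyp2g1 were in 1 cell.

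In the microvillar types, edgeR called no larger share of the members higher than of all genes. In Mv1, Cyp2j6 was the 1 of 8 that was higher than in mOSN (21.2% of all genes), by 4.68 on the log2 scale. In Mv2, 3 of 8 were higher (40.1% of all genes), namely Cyp2j6 (4.38), Cyp2f2 (2.77) and Cyp4b1 (2.51, from 6 UMIs, and no longer called without mouse 2). In mice 1 to 4, Cyp2f2 was found in 29 of 476, 8 of 402, 33 of 400 and 16 of 490 Mv2 cells. The 2 cells with most UMIs held 44 of 115, 10 of 16, 44 of 89 and 43 of 80 UMIs. Por was lower in Mv2 (-0.61, edgeR adjusted p = 6.52e-05), as were 37.4% of all genes. In Mv1, DESeq2 called 3 of 8 members higher, beside 3596 of 12344 genes.

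Between Sus and HBC2, 3 of 8 members were higher in Sus (14.7% of all genes) and 4 were called lower (16.6% of all genes), 2 of them the genes that passed the filter only through HBC2. Cyp1a2 was higher by 2.44 (SE 0.16), Cyp2g1 by 1.76 (SE 0.22) and Cyp2a5 by 1.43 (SE 0.21) on the log2 scale, with edgeR adjusted p of 8.14e-15, 1.61e-08 and 8.75e-07. Cyp2f2 was lower by -1.66 (edgeR adjusted p = 8.47e-11) and Cyp2j6 by -2.24 (edgeR adjusted p = 1.14e-10), and the calls of Cyp4b1 and Cyp4a12b, with 1 and 0 UMIs in Sus, were fixed by the filter. Por did not pass (-0.19, SE 0.11, edgeR adjusted p = 0.196). DESeq2 called none of the 3 higher (adjusted p of 0.108 for Cyp2g1, 0.098 for Cyp1a2 and 0.159 for Cyp2a5) and kept 2 of the 4 lower, Cyp2j6 and Cyp4b1.

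These differences depended on which HBC2 cells were used. The split of HBC2 was chosen after the values had been seen, and no step that kept the members out of it is described. The log2 differences against its parts are therefore a description, given without p-values. Against the HBC2 cells first placed with Sus, Cyp1a2 stayed higher in Sus (0.93), while the differences of Cyp2g1 (0.27) and Cyp2a5 (0.01) were smaller. Por was then lower in Sus by -0.89. Against the HBC2 cells first placed with HBC, Por was higher in Sus by 0.38. Cyp2f2 was lower in Sus against both groups, by -1.38 and -1.80.

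Mature neurons were also split by their assigned receptor gene into 1071 cells of class I (156 receptor genes of the cluster at chr7:102476579-105369355) and 8641 of class II, as a comparison in which the receptor, not the P450 genes, sets the groups. Of the 9 members, 5 passed the filter, and edgeR called 0 of the 5, where 18.6% of all genes were called. None of the 5 had an unadjusted p under 0.05, and DESeq2 also called 0. The log2 difference of Por was 0.11 (SE 0.08) and that of Cyp2g1 0.14 (SE 0.32).

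Beyond the members, few P450 genes were well expressed. Of 114 genes in families 1 to 4, 48 had a UMI in the retained cells and 66 had none. A level of 0.5 in any type was reached by 8 of the 114, 6 of them members, and all 8 were highest in Sus, HBC2 or HBC1. The other 2 were Cyp3a13, a drug-oxidising P450, with 0.681 in HBC1, 0.625 in Sus and 0.497 in HBC2, and Cyp2b10, the phenobarbital-inducible P450 of the liver, with 0.583 ± 0.237 in HBC2 and 0 UMIs in Sus. Among 20 genes of the higher families, which make sterols, steroids and retinoid products, the level was reached by Cyp51 of cholesterol synthesis (0.953 in iOSN1, 0.882 in HBC1, 0.825 in Mv1 and 0.292 in mOSN, the first 3 with overlapping ranges). Cyp4v3 (0.497) and the member Cyp4a12b (0.474) were just below that level.

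The cluster around Cyp2g1 was read out unevenly. Within 1 Mb of Cyp2g1 lie 16 P450 genes, itself included, of which 13 are annotated as protein coding. Of the 16, 8 had a UMI in Sus or HBC2. Cyp2b19, at -51.8 kb from Cyp2g1, and Cyp2a22, at 123 kb, had none in either type. Cyp2f2, 311 kb downstream, had its highest level in HBC2, as had Cyp2b10 and Cyp2s1 (0.183 from 92 UMIs) on the other side.

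**Figure D5:**
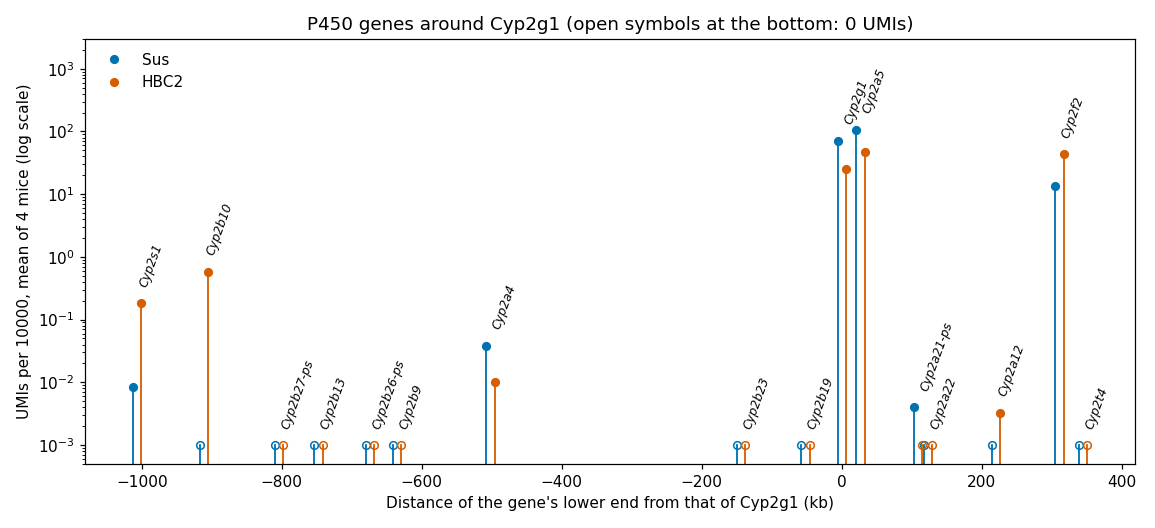
Mean level (UMIs per 10000, log scale, 4 mice) in Sus and HBC2 of the P450 genes within 1 Mb of Cyp2g1, by the distance of their lower ends from it in kb, with open symbols for 0 UMIs. Cyp2g1 and Cyp2a5 stand side by side at 71.4 and 107 in Sus, and Cyp2f2 and Cyp2b10 are higher in HBC2.

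Most genes of electron transfer were higher in Sus and HBC2 than in mOSN, and also in other types. Of 8 genes, the member Por included, 7 were higher and 1 was lower in Sus than in mOSN, with a median log2 difference of 2.37 against -0.08 over all genes, and the counts in HBC2 were the same with a median of 2.64 against -0.07 (33.6% and 37.3% of all genes were higher, and 35.9% and 39.1% lower). In HBC1 and Mv2 6 of the 8 were higher (30.2% and 40.1% of all genes), and in Mv1 and GBC 5 (21.2% and 38.7%). Cyb5a, the microsomal cytochrome b5, was at 20.9 in Sus, 11.6 in HBC2 and 1.41 in mOSN (4.03 higher in Sus than in mOSN on the log2 scale). Pgrmc1, a heme-binding partner of P450 enzymes, was at 8.60 in Sus, 9.16 in HBC2 and 1.56 in mOSN. The gene that fell was Fdxr, of the mitochondrial P450 chain, with 0.0609 in Sus and 0.181 in mOSN. Between Sus and HBC2, 3 of the 8 were higher, among them Cyb5a (0.96), and Fdx1 of the mitochondrial chain was lower (-1.03), where 14.7% of all genes were higher and 16.6% lower.

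Heme synthesis had 6 of 8 genes higher and 2 lower than in mOSN in both Sus and HBC2, with medians of 1.43 and 0.82, beside 33.6% and 37.3% of all genes higher and 35.9% and 39.1% lower. The counts were the same in Mv2 (median 0.48), where 40.1% of all genes were higher and 37.4% lower. Alas1, which sets the pace of the pathway, was at 2.74 in Sus, 2.71 in HBC2 and 0.165 in mOSN, and Alad was at 2.82, 0.936 and 0.161. The lower genes were Uros and Ppox. Alad was also higher in Sus than in HBC2 (1.75), as 1 of 4 of the 8 that were, with none lower (14.7% and 16.6% of all genes). Of the 4 genes of heme breakdown, the biliverdin reductase Blvrb was higher in Sus (11.3) than in mOSN (0.0480), Blvra and Hmox2 were lower, and Hmox1 did not pass. The counts in HBC2 were the same.

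Of 18 genes of factors known to regulate P450 genes, 12 were tested. In Sus 7 were higher and 1 lower than in mOSN (median 1.26), and in HBC2 9 were higher and 1 lower (median 1.68), where 33.6% and 37.3% of all genes were higher and 35.9% and 39.1% lower. HBC1 had 8 higher and 2 lower, and Mv2 6 and 3 (30.2% and 40.1% of all genes higher, 4285 and 4614 of 12344 lower). GBC had 4 higher and 6 lower (median -0.43), and Mv1 2 and 4 (median -0.38). There 38.7% and 21.2% of all genes were higher, and 4180 and 3613 of 12344 lower. Nfib was at 4.85 in Sus and 1.25 in mOSN and Nfia at 1.98 and 0.332, both higher in Sus, and Nfe2l2, the oxidative stress factor, was the lower one at 1.55 against 4.57. Both Nfib and Nfia were also higher than in mOSN in HBC2, HBC1 and Mv2. The log2 differences there were 1.98, 2.08 and 1.21 for Nfib and 2.49, 2.72 and 2.17 for Nfia. In Mv1, Nfib was lower (-0.98) and Nfia higher (1.23). Foxa1 stood at 1.33 in HBC2, 0.0177 in Sus and 0.00553 in mOSN, and it was lower in Sus than in HBC2 by -6.11. Cebpa (-0.83) was the other of the 12 that was lower there, and none was higher, where 16.6% of all genes were lower and 14.7% higher. The liver factors Hnf4a, Foxa2 and Nr1i3 had no UMI in Sus, HBC2 or HBC1. Ahr, whose product induces Cyp1a2 in the liver, was at 0.172 in Sus and 0.270 in mOSN (-0.54, edgeR adjusted p = 0.0763).

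Of 12 genes of flavin monooxygenases, epoxide hydrolases, aldehyde oxidases and the quinone reductase Nqo1, 9 were tested, and 8 were higher and 1 lower than in mOSN in both Sus (median 4.18) and HBC2 (median 8.66), where 33.6% and 37.3% of all genes were higher and 35.9% and 39.1% lower. The count was the same in HBC1 (median 4.79, 30.2% of all genes higher). Genes of this list near 0 in mOSN passed the filter through the types in which they were high, so these counts and medians are a description too. The flavin monooxygenase gene Fmo2 was at 4.22 in Sus and 4.73 in HBC2. The epoxide hydrolase gene Ephx1 was at 2.94 and 4.57. The lower gene was Nqo1, which marks dorsal neurons, with 7.24 in mOSN and 0.356 in Sus. Between Sus and HBC2, 8 of the 9 were lower in Sus and none was higher (16.6% and 14.7% of all genes), with a median of -1.40 against -0.03 over all genes.

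By pattern over 40 sums (10 types in 4 mice), the genes most like Cyp2g1 on the log2(level + 0.1) scale were Cyp1a2 (Pearson r = 0.979), AU021092 (0.976) and the surfactant protein gene Sftpd (0.967), with Agr2 (0.967) and Abca13 (0.966) next. Among those most like Cyp2f2 were Mettl7a1 (0.965) and Hlf (0.965). Por was closest to Il33 (0.947), AU021092 (0.934) and Gabrp (0.928). For Cyp4b1 they were Depp1 (0.981), Muc16 (0.9798) and Cmbl (0.978), for Cyp2j6 Hbegf (0.887), Klf5 (0.880) and Sat1 (0.879), and for Cyp4a12b Acsm1 (0.990), Kcnj16 (0.988) and Gdpd2 (0.984). The sums share libraries and types, so these values are a description of likeness over types. Cyp2g1 and Cyp2a5 had an r of 0.963 with each other, the highest that Cyp2a5 had with any gene, Cyp2g1 and Por 0.901, and Cyp2g1 and Cyp2f2 0.809.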

How the data were processed

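Single-cell libraries from 4 mice (10x Genomics 3′ v3.1 chemistry, 1 per mouse) were analysed. Per the methods of the study and the submitters' processing notes, the authors aligned reads with Cell Ranger 6.0.1 to GRCm38 and an Ensembl annotation with redrawn 3′ ends of receptor genes, and clustered cells with Seurat. They removed blood, immune and mitochondria-rich clusters, then cells with over 10% mitochondrial counts or under 1000 genes. The deposited values are raw UMI counts, and the deposited annotation gives each cell's mouse, type and receptor.

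From these counts, UMIs were summed per mouse and type with Python 3.11.15, pandas 2.3.3 and scipy 1.17.1. Tests used edgeR 4.0.16 in R 4.3.3 (TMM, filterByExpr, glmQLFit and glmQLFTest), with DESeq2 1.42.0 as an alternative, on cells whose type, called again from 2000 genes without P450 genes, Por and receptors by the profiles of the other 3 mice, equalled the deposited one. The tests were checked on simulated data. Same-numbered sums came from the same animal and library, so the mouse was a block. No caller of doublets was run, and in an alternative the 5% of cells with most UMIs were left out. Exact intervals (95%) and the limit of 3 counts cover counting error only. Gene positions came from GENCODE M21 on GRCm38 by gene ID (55130 matched).

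The members and lists were chosen with earlier results of these data known. Named besides the members were the lists of electron transfer, heme synthesis, heme breakdown, P450 regulators and other oxidising enzymes, every P450 gene with a mean of at least 0.5 UMIs per 10000 in a type, and the genes most alike in pattern. Some genes that these rules name are not reported here.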

Additional observations from a re-analysis of the deposited data

Results flagged for a closer look

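In 7 of 48 pairs of a member and a type with at least 20 UMIs, 1 of the 4 mice lay far from the other 3; chance alone gives such a gap in about 1 of 20 groups. In mouse 4, Cyp2g1 (3.34 UMIs per 10000) and Cyp1a2 (1.18) in HBC1 and Cyp2a5 (1.29) and Cyp2f2 (1.04) in GBC were high, and these are the values to which a few cells gave most UMIs. In mouse 2, Cyp2a5 was high in Sus (127) and in HBC2 (67.7), and Cyp2f2 was low in Mv2 (0.0997, against a mean of 0.302 over the 4 mice).

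A further signal stood in cells outside the 10 types. The authors' earlier Sus cluster held 61 cells that were later removed, with a median of 1401 UMIs per cell, and Cyp2g1 was at 80.9 ± 30.8 UMIs per 10000 in them (126, 58.7, 65.5 and 73.1 in the 4 mice), against 0.0432 in mOSN. In these cells Cyp2a5 was at 125, Cyp2f2 at 22.3 and Por at 21.4, and the members made up 2.63% of all UMIs.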

How the results depend on the processing

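The members' summed level in HBC2 (132 UMIs per 10000) was 56.7 in the cells first placed with HBC and 257 in those first placed with Sus, and the first of these turned Cyp2g1 (-0.72) and Cyp1a2 (-0.99) in HBC2 against mOSN and Por in Sus against HBC2 (0.38). In mOSN the sum moved by more than 1 SD and was 0.995 as a mean over cells and 0.950 in cells with at least 2000 genes. The share with any P450 member was 8.57% of mOSN cells at 5000 UMIs and 9.16% without thinning, and 98.8% of Sus cells without thinning. Without the 5% of cells with most UMIs, Cyp2f2 made up 42.2% of the members' UMIs in HBC2, and in HBC1 against mOSN Cyp2g1 was at -0.065 and Cyp1a2 at -3.78. In Mv1, DESeq2 called 3 members higher than in mOSN, beside 3596 of 12344 genes. Without a filter edgeR called 2 higher and 1 lower, beside 2696 and 4564 of 30462 genes. For Sus against HBC2, DESeq2 called 0 members higher and 2 lower, beside 1494 and 2162 of 12344 genes. The cause of these changes was not tested.

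With 1 mouse left out at a time, the members higher in GBC ran from 2 (without mouse 4) to 4. The log2 differences ran from -4.02 to 5.48 for Cyp1a2 in HBC1, from -0.57 to 2.60 for Cyp2a5 in GBC and from -0.39 to 3.18 for Cyp2f2 in GBC, with each lowest value without mouse 4. Members higher than in mOSN stayed at 6 in Sus and at 1 in Mv1, and ran from 7 to 8 in HBC2, from 4 to 6 in HBC1 and from 2 to 3 in Mv2. Those lower in Sus than in HBC2 ran from 3 to 4. These fits tested 11535 to 12945 genes. The genes higher than in mOSN were 3502 to 4028 in Sus, 2004 to 2549 in Mv1 and 3849 to 4682 in HBC2. They were 3119 to 3603 in HBC1, 4080 to 4627 in Mv2 and 3811 to 4563 in GBC. The genes lower in Sus than in HBC2 were 1632 to 1918.

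The sums of 1 mouse are paired by the animal. Without the replicate block the genes called between class I and class II neurons were 1080 in place of 2201 (DESeq2 called 1018), and the counts of members called were the same in all 8 comparisons. Depth limits Cyp2a4, Cyp4b1 and Cyp4a12b, which had at most 9 UMIs outside HBC2 in any type.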
